A study of Mus musculus with 9 samples.

Results

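The comparison described here sets 3 libraries of mouse skin lesions that received microneedles loaded with IL-2 and CCL22, called the loaded device below, against 3 libraries of untreated lesions. These are 6 of the 9 libraries of a bulk RNA-seq study of AA-like lesions, AA being the labels' own abbreviation, in a mouse study of immune-mediated alopecia. The other 3 libraries came from lesions treated with microneedles without a load (the empty device), and they enter here only through the shared estimate of spread and a few values given for reference. Every gene with enough counts was taken, 26081 of the 54456 in the table, and genes were read as families and pathways. The sources used here give no strain, genotype, sex, age or time after treatment. Whether each library is a separate animal is also not stated, so p-values measure only the spread among these libraries, and that spread may be technical. It was small, with a common coefficient of variation of 0.039 beyond counting noise. Within a group, the median gene's squared difference between a pair of libraries was 0.87 to 1.95 times its counting variance. Whether the libraries of a group share an animal was not tested, and small p-values do not stand for spread between animals. Since the device, its load and any difference between animals change together in this comparison, their parts cannot be told apart.

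Microneedles are short needles that carry a drug into the upper skin. Regulatory T cells need IL-2 to survive and grow, and CCL22 is an attractant for cells with the receptor CCR4. In alopecia areata, lymphocytes gather around growing hair follicles, where interferon-gamma switches on antigen presentation and the chemokines that bring in further T cells. The epidermis above responds to injury and inflammation with its own program of stress keratins, protease inhibitors, alarmins and antimicrobial proteins. Skin lesions of this kind hold epidermis, follicles, dermis, fat and muscle, and in such bulk samples fewer cells of a type and less RNA per cell cannot be told apart.

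Libraries held 85962714 to 90659053 counts each. The skin markers were high in all 6, with Krt10, a keratin of the differentiating epidermis, at 15624, 16015 and 15589 CPM (counts scaled to library size and between libraries) in untreated libraries 1 to 3 and 11665, 11789 and 12667 CPM in loaded libraries 1 to 3. Values below follow the same library order. At an edgeR adjusted p under 0.05, 11024 genes (42.3%) were called, 4950 higher (19.0%) and 6074 lower (23.3%) with the loaded device. Most of these many calls were of small size. The shares are not matched for level, and the share called in either direction depended strongly on level. It was 5.18% at or under 0.3 CPM and 74.3% above 100 CPM. A list of abundant genes can thus exceed both shares without standing apart from other abundant genes. A family is read here mainly by its balance of higher and lower calls. Its median is set against the median log2 fold change of all tested genes, which was -0.014. Library size alone as the scaling raised that median to 0.118 and turned the split to 8487 higher and 3973 lower. A median within about 0.1 of 0 thus carries no direction, and a somewhat larger one may carry none either. Under that scaling the cholesterol synthesis list went from a median of -0.122 to 0.011. The citric acid cycle list, with a median of -0.198, went from 1 higher and 11 lower to 9 and 9.

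Large differences went mostly down. A change of at least 2-fold was called for 501 genes (1.92%), 417 of them lower (1.60%) and 84 higher (0.322%). Of the lower genes, 193 had a mean of at least 1 CPM, against 8 of the higher genes. Predicted genes, RIKEN cDNA genes and pseudogenes made up 151 of the lower and 43 of the higher genes.

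The stress keratins of the epidermis were the steepest abundant genes. Krt6b, a keratin of wounded and overactive epidermis, stood at 699, 618 and 607 CPM in untreated skin and at 61.9, 62.2 and 66.6 CPM with the loaded device, 10.1-fold lower (log2 fold change -3.34, SE 0.09, edgeR adjusted p = 5.33e-09). Krt16, the usual partner of the Krt6 proteins, went from 1061, 950 and 935 CPM to 262, 268 and 280 CPM. Krt6a went from 848, 773 and 761 CPM to 258, 260 and 258 CPM. In each of these genes the groups were far apart, and the empty device gave a mean between them, at 214 CPM for Krt6b and 488 CPM for Krt16. Of 34 tested wound and stress genes of keratinocytes, 23 were lower, 13 of them by at least 2-fold, and 4 were higher, with a median of -0.55. Fosl1, a stress-induced member of the AP-1 factors, went against the list at 0.48.

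The keratins of resting epidermis moved less and not together. Krt14, the type I keratin of basal cells, stood at 7725, 7094 and 6849 CPM in untreated skin and 3446, 3628 and 3668 CPM with the loaded device, 2.02-fold lower (SE 0.04 on the log2 scale, edgeR adjusted p = 1.83e-16). Its basal partner Krt5 differed by a log2 fold change of -0.13, at 5280, 5550 and 5418 CPM against 4874, 4927 and 5074 CPM. With library size alone as the scaling the Krt5 difference was 0.01 and not called. Krt1, the spinous partner of Krt10, was lower at -0.66, Krt77 was not called (0.03, edgeR adjusted p = 0.597), and Krt2, a keratin of upper layers, was higher at 0.59 from a low level.

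The late cornified envelope family, small proteins cross-linked under the surface of dead corneocytes, was lower throughout. All 21 members were tested and all 21 were called lower, 15 of them at least 2-fold, with a median of -1.10. Lce1m, the member of this family described in most detail here, stood at 772, 729 and 691 CPM in untreated skin and at 355, 369 and 367 CPM with the loaded device (log2 fold change -1.01, SE 0.05). The Lce3 members, which are known for induction in damaged epidermis, were scarcer, with Lce3b at 3.27, 2.74 and 2.49 CPM against 0.805, 0.954 and 0.959 CPM (3.12-fold lower). The summed level of the family was 2911, 2676 and 2504 CPM against 1296, 1377 and 1373 CPM.

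The small proline-rich family lies beside it and is used for the same cross-linked envelope. Of 15 tested members 11 were lower and 0 higher, with a median of -0.68. Both families lie in the epidermal differentiation complex on mouse chromosome 3, and the window from 92000001 to 93000000 of that chromosome (mm39) held 21 genes at least 2-fold lower among 56 tested, more than any other 1 Mb window. Hrnr, the large S100-fused protein hornerin from the same complex, was 2.08-fold lower, at 1393, 1272 and 1217 CPM against 616, 617 and 636 CPM. Flg, the gene of filaggrin, lay lower in each loaded library, at 1421, 1451 and 1353 CPM against 1147, 1204 and 1204 CPM, and did not pass the test (edgeR adjusted p = 0.0611), though it passed in 8 of the alternative fits, given in the closing section. Members of these families share sequence, so the count of a single member is uncertain.

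Most listed enzymes of the kinds that modify the envelope went the other way, though the list is not confined to the epidermis. Among 9 transglutaminases and peptidylarginine deiminases, the enzymes that cross-link envelope proteins and convert their arginines, 6 were higher and 2 lower, with a median of 0.34. Padi3, an arginine-converting enzyme of the hair follicle and upper epidermis, rose from 402, 432 and 424 CPM to 585, 568 and 539 CPM. Padi2 rose 1.72-fold. The 2 lower genes were Tgm2, a widely expressed cross-linking enzyme, at -0.34 and Tgm5, one of the epidermis, at 66.2, 60.5 and 59.5 CPM against 31.2, 33.7 and 33.4 CPM. Desmosome genes, which rivet keratinocytes to each other, were split, with 4 of 15 higher and 7 lower, and that majority reversed with library size alone as the scaling (8 higher and 6 lower).

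Proteases and their inhibitors were lower side by side. Among 21 tested clade B serpins, intracellular protease inhibitors, 20 were lower and 0 higher, 8 of them by at least 2-fold (median -0.85). Serpinb6c stood at 25.8, 23.6 and 24.7 CPM against 4.73, 4.55 and 4.85 CPM, 5.25-fold lower (edgeR adjusted p = 1.12e-21). Serpinb12 stood at 229, 205 and 197 CPM against 66.5, 64.9 and 68.9 CPM. Neither gene's groups came near each other. Serpinb3a, the mouse relative of a squamous cell marker, was 4.21-fold lower. The summed level of the serpin list was 2731, 2450 and 2433 CPM against 1374, 1373 and 1456 CPM.

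The stefins and cystatins, inhibitors of cysteine proteases, were lower in 13 of 17 tested members and higher in 0, with a median of -1.01. The stefin cluster on chromosome 16 held 7 genes at least 2-fold lower among 25 tested in its window from 36000001 to 37000000 (mm39). Stfa1 stood at 79.5, 62.9 and 60.1 CPM against 12.8, 13.6 and 13.5 CPM, 5.07-fold lower. Stfa3 was the more abundant, at 217, 168 and 160 CPM against 42.8, 47.3 and 49.3 CPM. These genes are near copies of each other. Untreated library 1 was the highest of its group for both.

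Kallikreins, the serine proteases that loosen surface cells, were lower in 11 of 14 tested members and higher in 1 (median -0.80). Klk7, the chymotrypsin-like enzyme of the surface layer, stood at 2300, 2148 and 2093 CPM against 1039, 1056 and 1105 CPM. Spink5, the gene of the inhibitor that restrains the kallikreins, was lower by nearly the same factor, 2.06-fold against 2.04-fold for Klk7. Klk1b22 went against the list at 0.22. Of the 7 tested Tmprss11 proteases 6 were lower, with Tmprss11d at 11.01, 11.16 and 10.59 CPM against 1.36, 1.68 and 1.98 CPM. Wfdc12, a small antiprotease, had the lowest log2 fold change among the genes picked for naming by size, -3.71, at 12.14, 10.04 and 8.93 CPM against 0.816, 0.899 and 0.660 CPM.

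Gasdermins, pore-forming proteins, were lower in 8 of 9 tested members and higher in 0. Gsdmc stood at 280, 248 and 241 CPM against 84.8, 83.5 and 85.0 CPM, 3.04-fold lower. Gsdmc3 and Gsdmc4 lie beside it and were lower at -1.27 and -1.33, while Gsdma, abundant at means of 429 and 384 CPM, was lower at -0.16 and not called with library size alone as the scaling. The enzymes that build ceramides and other barrier lipids were lower in 22 of 31 members and higher in 5, with a smaller median of -0.25. Degs2, which hydroxylates ceramide bases, was 2.24-fold lower, and Elovl4, which makes the longest acyl chains, was 1.41-fold lower. Claudins and hemidesmosome genes showed no such direction, with 8 of 22 and 6 of 18 higher and 3 lower in each list. With library size alone as the scaling, 12 and 14 were higher and 2 lower in each list.

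**Figure D1:**
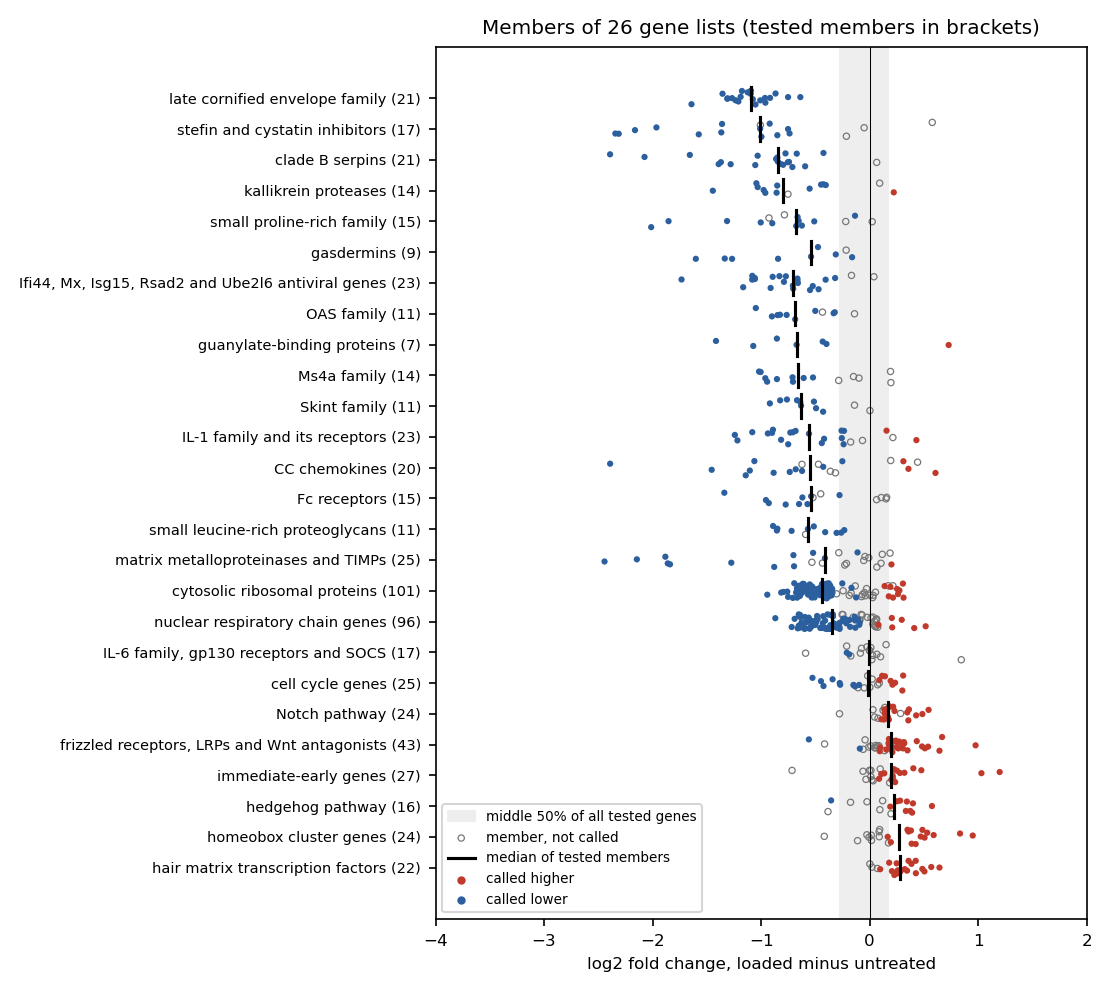
Log2 fold change (loaded minus untreated) of each tested member of 26 gene lists, with called members filled, members not called open, a bar at each list's median and the middle 50% of all tested genes shaded. Medians of the envelope, inhibitor and interferon lists lie left of the shading, and those of the follicle and developmental lists lie near its right edge.

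Cytokine genes of the epidermis were lower as a family. Of 23 tested genes of the IL-1 family and its receptors and processing enzymes, 18 were lower and 2 higher, with a median of -0.56. Il33, an alarmin released by injured barrier cells, stood at 87.8, 85.3 and 81.9 CPM against 38.9, 39.1 and 42.5 CPM, 2.12-fold lower (SE 0.04 on the log2 scale, edgeR adjusted p = 1.99e-18). Il1a stood at 49.3, 44.1 and 43.9 CPM against 23.94, 23.96 and 26.16 CPM. Il1rn and Il36rn, which block the same receptors, were lower too, at -0.56 and -0.68. Sigirr, an inhibitory receptor of the family, was higher at 0.43. Il24, an IL-20 subfamily cytokine of stressed keratinocytes, was 6.51-fold lower, at 1.54, 1.62 and 1.20 CPM against 0.224, 0.241 and 0.202 CPM.

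Other cytokine relays showed few calls. The IL-17 list, a pathway of epidermal defence, had 2 of 15 members higher and 3 lower, or 5 and 1 with library size alone as the scaling. The IL-6 and SOCS list had 0 of 17 higher and 2 lower, Stat3 at -0.21 and Osmr at -0.19, neither of them called with library size alone as the scaling. NF-kappa B factors and their feedback targets had 7 of 20 higher and 6 lower, or 10 and 2 under that scaling. Genes of type 2 immunity were lower in 12 of 21 members and higher in 2. Il4 and Il13 themselves had 9 to 27 counts in these libraries and were not called (edgeR adjusted p of 0.358 and 0.0876), though Il13 was called without untreated library 3 (0.0135). Postn, a matrix protein induced by those cytokines, was lower at -0.74.

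Chemokines were lower by subfamily, with exceptions. Of 12 tested CXC chemokines 6 were lower and 2 higher. The receptor CXCR3 draws activated T cells to the products of Cxcl9, Cxcl10 and Cxcl11, and these 3 genes were 3.66-fold, 2.58-fold and 5.56-fold lower. Cxcl9 stood at 24.6, 20.6 and 21.2 CPM against 5.61, 5.53 and 6.96 CPM. Cxcl1, a neutrophil chemokine, was higher at 1.25 from a low level, with raw counts of 20, 22 and 20 against 43, 56 and 61. The empty device gave means of 4.26 CPM for Cxcl9 and 0.234 CPM for Cxcl1.

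Of 20 tested CC chemokines 11 were lower, 5 of them by at least 2-fold, and 3 were higher (median -0.55). Ccl2, Ccl7 and Ccl12, neighbours on chromosome 11 that draw monocytes, were all at least 2-fold lower. The ligands of CCR4 moved apart. Ccl17 stood at 1.08, 0.811 and 0.820 CPM against 0.123, 0.197 and 0.192 CPM, 5.25-fold lower, and Ccl22, the gene of the delivered chemokine, stood at 7.96, 7.25 and 8.10 CPM against 10.5, 11.3 and 13.7 CPM, 1.52-fold higher (edgeR adjusted p = 1.72e-06). Of 22 chemokine receptors 14 were lower and 0 higher, with Cxcr6, a receptor of tissue T cells, at -0.95.

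Acute-phase and antimicrobial genes followed. Saa1, the gene of a serum amyloid protein that surface cells make under inflammation, stood at 4.66, 4.07 and 3.95 CPM against 0.537, 0.515 and 0.458 CPM, 8.38-fold lower. Its relative Saa3 was not called (0.22, edgeR adjusted p = 0.0975). Of 43 tested defensins and other antimicrobial genes 23 were lower and 1 higher. The defensin cluster on chromosome 8 held Defb14, Defb4 and Defb3, lower at -1.16, -1.04 and -1.43. S100a9, a chain of the neutrophil and keratinocyte alarmin calprotectin, stood at 54.8, 44.2 and 42.5 CPM against 15.5, 15.9 and 17.8 CPM, and its partner S100a8 was 2.74-fold lower.

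Interferon-induced families are where the promoters can be read beside the expression. Interferons act through STAT and IRF factors, which bind an element of paired GAAA blocks in the promoters of these genes. In 7 such families (OAS, IFIT and IFITM, the Mx and Isg15 group, Ifi200, guanylate-binding proteins, immunity-related GTPases and Schlafen), 86 genes were tested and 63 of them called lower. The element, GAAA then any 2 bases then GAAA, searched on both strands, lay in 37 of 76 promoters of these families (48.7%), against 630 of 19899 promoters of all tested genes (3.17%). Promoters are those of RefSeq on GRCm38.p6, from 250 bases before to 50 bases after the start, and 63 of the 86 genes had at least 1. Below are the promoters of 3 called genes of different families, with each copy of the element in capitals, 5′ to 3′ on the gene's strand.
Ifit1 (chr19:34640639-34640938, + strand): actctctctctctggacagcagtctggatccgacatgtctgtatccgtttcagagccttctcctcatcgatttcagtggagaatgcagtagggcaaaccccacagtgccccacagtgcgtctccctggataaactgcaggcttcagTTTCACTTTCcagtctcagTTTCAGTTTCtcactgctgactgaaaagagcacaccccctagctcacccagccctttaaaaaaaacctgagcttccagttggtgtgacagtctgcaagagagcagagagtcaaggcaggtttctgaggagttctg
Isg15 (chr4:156200769-156201068, - strand): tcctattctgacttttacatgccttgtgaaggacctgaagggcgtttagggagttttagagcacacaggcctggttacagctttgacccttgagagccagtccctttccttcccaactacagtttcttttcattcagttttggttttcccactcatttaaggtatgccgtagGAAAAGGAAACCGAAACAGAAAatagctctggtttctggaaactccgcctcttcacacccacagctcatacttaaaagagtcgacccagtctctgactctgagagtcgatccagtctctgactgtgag
Gbp2 (chr3:142620413-142620712, + strand): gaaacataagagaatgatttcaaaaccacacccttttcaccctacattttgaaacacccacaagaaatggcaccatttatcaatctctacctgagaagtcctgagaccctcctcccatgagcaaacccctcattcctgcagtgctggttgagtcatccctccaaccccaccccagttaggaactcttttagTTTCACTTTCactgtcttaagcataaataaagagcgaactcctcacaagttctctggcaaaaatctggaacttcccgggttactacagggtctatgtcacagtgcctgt

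The element begins 104 and 85 bases before the start in Ifit1 and 59 bases before it in Gbp2, both times as its reverse complement. In Isg15 there are 3 overlapping copies, the first beginning 78 bases before the start. The element was in a promoter of 29 of 48 family genes called lower (60.4%) and of 5 of 15 not called lower (33.3%). By size of the change, the 34 genes of these families whose promoter holds it had a median log2 fold change of -0.54 and the 29 without it a median of -0.66. A match is a description of these letters and shows no binding.

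Of the families, the Ifi44, Mx and Isg15 group was lower in 21 of 23 members and higher in 0, with a median of -0.71. Ifit1, whose protein binds foreign RNA, stood at 16.1, 14.5 and 13.4 CPM against 3.24, 3.36 and 3.47 CPM, 4.36-fold lower (SE 0.07 on the log2 scale, edgeR adjusted p = 2.73e-18). Ifi44 was 3.32-fold lower and Isg15, the gene of a ubiquitin-like tag, 2.12-fold lower, at 20.6, 19.7 and 18.5 CPM against 9.12, 9.21 and 9.47 CPM. The groups were far apart in each of these genes. With the empty device the means were 3.47 CPM for Ifit1 and 8.68 CPM for Isg15.

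The OAS family, sensors of double-stranded RNA, was lower in 9 of 11 members and higher in 0, with Oasl2 2.07-fold lower. Of the 7 tested guanylate-binding proteins, interferon-gamma-induced GTPases, 6 were lower. Gbp2 stood at 35.3, 29.4 and 29.8 CPM against 13.8, 15.1 and 15.9 CPM, and Gbp11 was the exception, higher at 0.73 (1.12, 1.14 and 1.01 CPM against 1.66, 1.85 and 1.90 CPM). The Ifi200 family of DNA sensors was lower in 9 of 12 members, the Schlafen family in 6 of 10 and the immunity-related GTPases in 6 of 12, with 2 of the last higher. The factors that drive these genes moved less, with 7 of 16 IRF and STAT genes lower and 0 higher. Under library size alone that list stood at 5 higher and 5 lower.

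Antigen presentation was lower in both classes. Of 26 tested genes of MHC class I and its peptide supply, 19 were lower and 2 higher (median -0.30), and of 15 of class II, 11 were lower and 1 higher (median -0.51). B2m, the shared light chain of class I, stood at 1288, 1120 and 1114 CPM against 596, 618 and 673 CPM. H2-Aa, a class II chain, was 1.83-fold lower. Against genes of the same class of span (below), the medians were -0.16 and -0.34. The immunoproteasome subunits Psmb10 and Psmb9 were lower at -0.73 and -0.59.

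Genes listed for immune cells moved in the same comparison. Of 29 monocyte and macrophage genes 21 were lower and 2 higher. Of 22 genes of the T cell receptor complex and co-receptors 14 were lower and 0 higher. In the list of 16 neutrophil genes 8 were lower and 1, Cxcl1, was higher. That list also holds chemokines that draw neutrophils and genes that keratinocytes express, such as S100a8 and S100a9, so it does not mark neutrophils alone. With library size alone as the scaling 6 of the T cell genes were lower and 0 higher. The summed level of the T cell list was 71.6 to 79.0 CPM in untreated skin and 51.7 to 53.5 CPM with the loaded device. Adgre1, the F4/80 antigen of macrophages, stood at 11.99, 12.54 and 11.39 CPM against 6.56, 6.96 and 6.48 CPM. The part of these cells in the cytokine, interferon and antigen presentation results was not tested.

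Receptor families of immune cells were lower widely. C-type lectin and lectin-like receptors were lower in 27 of 54 members and higher in 1. That list mixes myeloid receptors with the Klr genes of natural killer and T cells and with Clec2 genes, so its count is not one of myeloid cells. Clec7a, a myeloid receptor for fungal wall, stood at 4.33, 4.18 and 4.42 CPM against 1.49, 1.49 and 1.62 CPM. Of 15 Fc receptors 9 were lower, of 14 Ms4a genes 9 and of 18 Toll-like receptors and adaptors 12, with 0, 0 and 1 higher. Mast cell genes had 2 of 16 higher and 5 lower, or 5 and 2 with library size alone as the scaling, with Kit higher at 0.52 and Cma1, a chymase, lower at -0.40. Kit is also a melanocyte gene. The Skint family, epidermal genes that select gamma-delta T cells, was lower in 9 of 11 members and higher in 0.

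Cytotoxic and antibody genes were sparse. Of 17 natural killer and cytotoxic genes 8 were lower and 0 higher, with Gzmc, a granzyme, at 4.72, 5.01 and 4.04 CPM against 1.88, 2.05 and 2.12 CPM. Ighg1, a constant region of secreted antibody, stood at 17.0, 18.1 and 17.4 CPM against 2.16, 2.36 and 2.79 CPM, 7.17-fold lower, while Ighm and Igha were lower at -0.46 and -0.25. Igha was not called without untreated library 1, without loaded library 1 or with library size alone as the scaling (-0.12). Antibody V segments, of which each B cell clone uses its own, were called at 2-fold or more for 29 of 43, 21 lower and 8 higher. Igkv2-109 had 139, 169 and 166 counts in untreated skin against 4, 3 and 4, and Ighv8-8 had 0, 2 and 0 against 50, 56 and 60. The summed level of the V segments was 17.2, 20.4 and 18.2 CPM against 7.35, 8.53 and 8.10 CPM. V segments share sequence, and these were named after their values were seen.

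**Figure D2:**
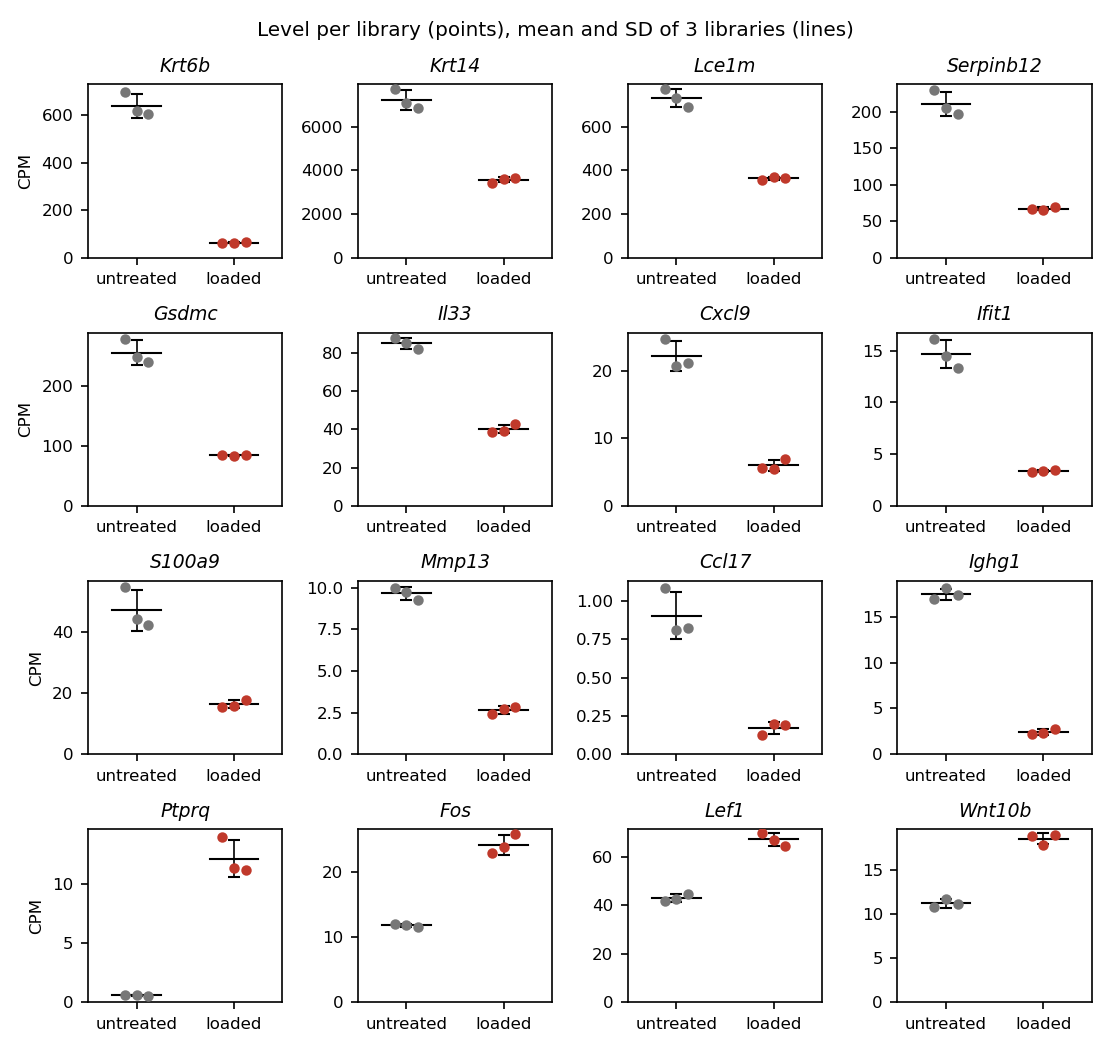
Level in CPM of 16 genes in the 3 untreated (grey) and 3 loaded-device (red) libraries, each point a library, with the mean and SD as lines and each axis starting at 0. No gene shown has overlapping groups, and Ptprq, Fos, Lef1 and Wnt10b are higher with the loaded device.

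Matrix genes were lower in some lists and without a direction in others, and the collagenase cluster held the lowest values of its list. Of 25 metalloproteinases and their inhibitors 12 were lower, 6 of them by at least 2-fold, and 1 was higher (median -0.41). All 6 lie in the window from 7000001 to 8000000 of chromosome 9 (mm39), which held 18 tested genes. Mmp13, a collagenase, stood at 9.98, 9.73 and 9.25 CPM against 2.40, 2.74 and 2.82 CPM, 3.63-fold lower. Mmp12, an elastase of macrophages, stood at 34.9, 35.7 and 36.6 CPM against 8.53, 9.94 and 10.6 CPM, Mmp3 was 2.42-fold lower and Mmp10 5.44-fold lower.

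These 4 promoters each hold a single copy of the AP-1 element TGANTCA, searched on both strands, within 63 bases of the start (RefSeq, GRCm38.p6). They belong to 4 of the 6 neighbours that moved together, and the element is in capitals. Only promoters that hold the element are shown. Mmp1a and Mmp1b, the remaining genes of the 6, are not shown, so the 4 do not speak for the whole cluster.
Mmp13 (chr9:7272264-7272563, + strand): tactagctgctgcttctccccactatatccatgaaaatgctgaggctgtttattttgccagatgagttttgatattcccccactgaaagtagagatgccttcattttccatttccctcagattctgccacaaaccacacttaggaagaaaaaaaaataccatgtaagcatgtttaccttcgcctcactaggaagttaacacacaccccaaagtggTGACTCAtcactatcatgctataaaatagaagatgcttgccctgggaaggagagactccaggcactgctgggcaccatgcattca
Mmp12 (chr9:7347124-7347423, + strand): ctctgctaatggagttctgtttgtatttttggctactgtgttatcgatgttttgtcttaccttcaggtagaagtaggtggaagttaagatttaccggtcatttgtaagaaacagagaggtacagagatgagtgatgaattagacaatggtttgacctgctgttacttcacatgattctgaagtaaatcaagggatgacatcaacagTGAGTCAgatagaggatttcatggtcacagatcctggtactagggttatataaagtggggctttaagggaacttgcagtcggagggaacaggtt
Mmp3 (chr9:7445572-7445871, + strand): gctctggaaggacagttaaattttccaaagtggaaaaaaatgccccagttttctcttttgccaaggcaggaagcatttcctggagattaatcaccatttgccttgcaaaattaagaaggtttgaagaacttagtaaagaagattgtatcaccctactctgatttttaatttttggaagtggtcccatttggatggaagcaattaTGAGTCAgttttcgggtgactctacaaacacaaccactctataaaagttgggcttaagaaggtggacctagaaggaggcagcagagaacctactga
Mmp10 (chr9:7502092-7502391, + strand): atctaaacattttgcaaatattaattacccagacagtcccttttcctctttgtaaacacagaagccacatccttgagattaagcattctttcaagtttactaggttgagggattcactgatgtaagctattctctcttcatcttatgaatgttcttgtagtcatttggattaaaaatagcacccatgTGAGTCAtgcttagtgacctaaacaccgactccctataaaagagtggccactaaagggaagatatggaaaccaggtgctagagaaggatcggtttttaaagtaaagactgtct

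The element begins 35, 44, 46 and 63 bases before the start in Mmp13, Mmp12, Mmp3 and Mmp10. Over all genes at least 2-fold lower, 45 of 253 promoters (17.8%) held it, against 1317 of 19899 (6.62%) for all tested genes and 3 of 41 (7.32%) for genes at least 2-fold higher. The letters TATAAA lay in 70 of the 253 (27.7%), in 1980 of all 19899 (9.95%) and in 8 of the 41 (19.5%). The STAT element TTCNNNGAA lay in 11.1% against 7.42%, and the cyclic AMP element TGACGTCA in 0.791% against 2.38%. The genes of the AP-1 proteins themselves were higher, as given below, and no test of a link was made.

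Other dermal genes fell by less. The small leucine-rich proteoglycans, which space collagen fibrils, were lower in 10 of 11 members (median -0.57), with Lum at 68.9, 66.9 and 64.7 CPM against 35.9, 36.7 and 38.2 CPM. Of 11 fibrillar collagens 5 were lower and 1 higher, with Col1a1 1.61-fold and Col3a1 1.47-fold lower. The collagens of the basement membrane went the other way, with Col4a1, Col4a2, Col4a5 and Col4a6 higher at 0.20, 0.20, 0.19 and 0.32. Of 30 matricellular and elastic fibre genes 21 were lower and 1 higher, and Spp1, the gene of osteopontin, was 2.91-fold lower. Of 20 collagen-modifying enzymes 12 were lower and 1 higher, with the cross-linker Lox at -0.64, and with library size alone as the scaling 8 were lower and 6 higher. Over all 44 collagens 11 were higher and 14 lower (median 0.01), which became 16 and 13 under that scaling. ADAMTS proteases, laminins and genes of the TGF-beta and activin pathway had 4, 4 and 9 members higher and 3, 2 and 4 lower. With library size alone as the scaling these became 10, 6 and 15 higher and 3, 1 and 3 lower.

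Among the lists with more higher than lower calls were those of the hair follicle and of development, with small differences. Wnt signals keep the hair matrix dividing. The list of frizzled receptors, LRPs and Wnt antagonists also holds R-spondins, their Lgr receptors, Ctnnb1 and the factors Lef1, Tcf7 and Tcf7l1. Of its 43 genes 30 were higher and 2 lower (median 0.20), and of 18 Wnt ligands 7 were higher and 2 lower. Wnt10b, the ligand made as a new hair starts, rose from 10.8, 11.7 and 11.2 CPM to 18.9, 17.8 and 18.9 CPM, 1.66-fold (SE 0.05 on the log2 scale, edgeR adjusted p = 9.55e-12). Lef1, the factor that reads the signal, rose from 41.6, 42.5 and 44.6 CPM to 69.9, 66.9 and 64.4 CPM. Notum, an enzyme that switches Wnt ligands off, rose 1.97-fold, from 5.62, 6.17 and 6.28 CPM to 12.4, 11.6 and 11.6 CPM. Wnt16, a ligand of the epidermis and bulge, was the largest exception, at 8.12, 7.86 and 7.65 CPM against 3.40, 3.72 and 3.95 CPM.

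Other follicle signals moved the same way. Of 16 hedgehog genes 9 were higher and 1 lower, with Shh, the matrix signal, at 10.7, 10.2 and 10.9 CPM against 16.4, 16.4 and 14.5 CPM and its target Gli1 1.30-fold higher. Of 24 Notch genes 17 were higher and 0 lower, with Notch1 at 177, 184 and 193 CPM against 248, 238 and 227 CPM. Of 22 transcription factors of the hair matrix 19 were higher and 0 lower (median 0.28), with Dlx4 at 0.57 and Msx2 at 0.43. The groups of Shh, Notch1, Dlx4 and Msx2 did not overlap, as was so for 52.7% of all tested genes. Of 27 BMP genes 13 were higher and 5 lower, and Bmp5 was lower at -0.68.

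Position and guidance genes were higher in the same small way. Of 24 tested homeobox cluster genes 14 were higher and 0 lower (median 0.27). Hoxc13, which drives hair keratins, stood at 84.0, 88.4 and 88.0 CPM against 113, 112 and 109 CPM. Of 22 ephrins and Eph receptors 13 were higher and 0 lower, and of 31 semaphorins and plexins 15 were higher and 2 lower, with the co-receptor Nrp2 at 0.44 and Sema3c at -0.53. Of 22 keratins of the hair shaft and inner root sheath 17 were higher and 2 lower, with Krt35 at 409, 407 and 401 CPM against 563, 566 and 538 CPM. Of 55 keratin-associated proteins, the matrix of the hair shaft, 33 were higher and 7 lower. Krtap5-2 and Krtap5-3 were lower by more than 2-fold, at -1.25 and -1.39.

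Immediate-early genes, which respond within minutes to growth factors and to handling of tissue, were higher in 17 of 27 members and lower in 0, with a median of 0.20. Fos rose from 12.01, 11.99 and 11.65 CPM to 22.9, 23.9 and 25.9 CPM, 2.04-fold, and Fosb rose 2.30-fold. Egr1, a zinc finger factor of the same response, rose 1.32-fold. The empty device gave a mean of 23.6 CPM for Fos. The sources used here give no handling times, and their part was not tested. Heat shock genes, another sign of handling, stood at 17 of 76 higher and 22 lower, and at 34 higher and 15 lower with library size alone as the scaling.

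Housekeeping families were lower together. Of 101 genes matched as cytosolic ribosomal proteins, a name pattern that also takes in a few ribosomal S6 kinases, 75 were lower and 9 higher (median -0.44). Of 96 nuclear genes of the respiratory chain 71 were lower and 6 higher (median -0.34), of 47 proteasome subunits 37 were lower and 4 higher, and of 13 mRNAs encoded in mitochondria 10 were lower and 0 higher. Rplp0, a protein of the ribosome's stalk, stood at 2192, 1970 and 1941 CPM against 1306, 1350 and 1325 CPM. Atp5o, a subunit of ATP synthase, was 1.56-fold lower. The share of counts from mitochondrial genes was 4.56% to 4.72% in untreated skin and 3.78% to 3.90% with the loaded device.

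Gene span moved with the direction over the whole genome. Among genes of at least 1 CPM, the fifth with the shortest spans (67 to 4683 bases) had 12.6% higher, 47.7% lower and a median of -0.19. The fifth with the longest spans (68086 to 2960899 bases) had 34.1% higher, 20.1% lower and a median of 0.05. With predicted genes, RIKEN genes and pseudogenes left out, the medians were -0.09 and 0.05. The gene length in the deposited table equals the whole span, introns included, for 99.9% of genes.

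Set against the median of genes in the same class of span, the ribosomal list stood at a median of -0.32, the respiratory chain at -0.28 and the mitochondrial ribosomal proteins at -0.09. On the same footing the late cornified envelope family stood at -0.91, the clade B serpins at -0.85, the OAS family at -0.69, the small proline-rich family at -0.49, the monocyte and macrophage genes at -0.43, the homeobox genes at 0.36 and the Notch genes at 0.25. The sources used here give no RNA quality values, and their part was not tested.

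**Figure D3:**
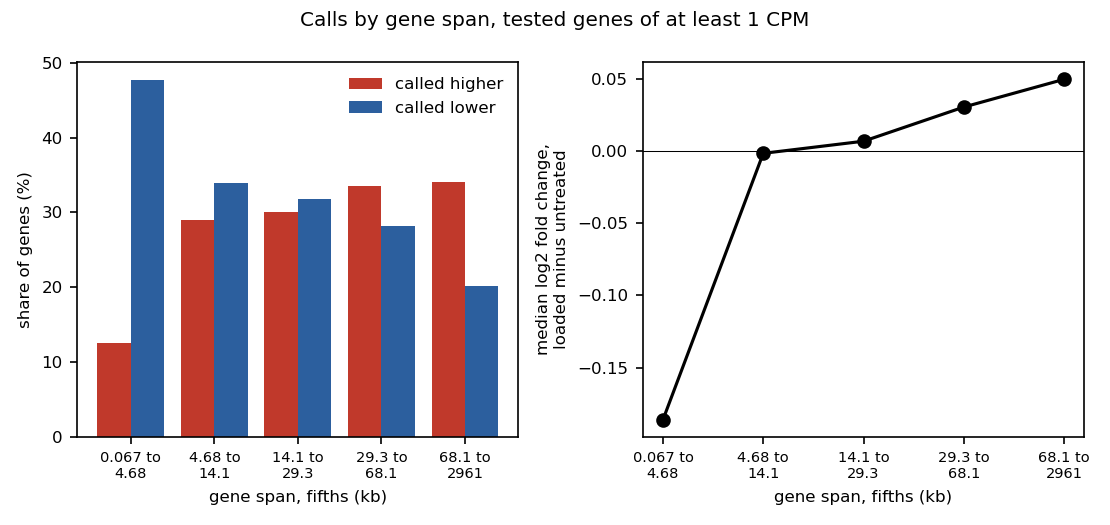
Share of genes called higher (red) and lower (blue), left, and median log2 fold change, right, in 5 equal classes of gene span in kb for tested genes of at least 1 CPM. The share called lower goes from 47.7% in the shortest class to 20.1% in the longest.

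Energy and lipid metabolism divided by pathway. Of 21 glycolysis genes 15 were lower and 1 higher, or 8 and 2 with library size alone as the scaling, with Pgk1 at 228, 210 and 202 CPM against 115, 116 and 122 CPM. Of 25 glutathione transferases 14 were lower and 2 higher, and of 21 metallothionein and oxidative stress genes 14 were lower and 3 higher. Genes of fat cells were higher in 16 of 30 members and lower in 5 (median 0.21). Adipoq, the gene of adiponectin, stood at 24.32, 21.34 and 22.02 CPM against 30.6, 33.1 and 34.9 CPM, and Pck1, which makes glycerol for fat storage, rose 2.09-fold. Cyp2e1, an alcohol-metabolising P450, rose 2.67-fold, from 7.01, 6.37 and 6.37 CPM to 16.6, 17.3 and 18.9 CPM. With the empty device the means were 10.3 CPM for Adipoq and 7.001 CPM for Pck1, under those of untreated skin. Sebaceous genes were lower in 12 of 19 members and higher in 4.

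Muscle and vessel genes also moved with the groups. Of 14 fast fibre genes 12 were lower and 1 higher (median -0.23), while of 12 slow fibre genes 5 were higher and 2 lower (median 0.16). With library size alone as the scaling 4 fast fibre genes were lower and 1 higher, with a median of -0.09. Myh7, the slow myosin, stood at 1.05, 1.14 and 0.912 CPM against 3.68, 3.61 and 4.31 CPM, 3.75-fold higher. Myl2 was 2.04-fold higher at a mean under 1 CPM, so both are genes of low level. Myh4, the abundant fast myosin, was higher as well, at 986, 1026 and 960 CPM against 1103, 1171 and 1288 CPM, and not called without untreated library 1 (edgeR adjusted p = 0.0617). Fibre types differ between body muscles, and how much muscle each lesion held was not measured. Of 10 lymphatic endothelial genes 6 were lower and 1 higher, with Lyve1 2.54-fold lower and Prox1, the defining factor, not called (-0.10, edgeR adjusted p = 0.537). Lyve1 also marks macrophages. Of 21 blood endothelial genes 7 were higher and 1 lower, or 13 and 0 with library size alone as the scaling, with Pecam1 not called (0.02, edgeR adjusted p = 0.802).

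Several programs had no direction in the main fit. Cell cycle genes were higher in 8 and lower in 10 of 25, and DNA replication genes higher in 7 and lower in 12 of 28. Mki67, a marker of dividing cells, was not called (-0.05, edgeR adjusted p = 0.302), and Ccnb1, a mitotic cyclin, was lower at -0.53. Of 42 replication histone genes 2 were higher and 2 lower, of 22 unfolded protein response genes 5 higher and 7 lower, of 22 p53 targets 10 higher and 8 lower and of 18 clock genes 7 higher and 5 lower. For the cell cycle, replication and unfolded protein lists the majority turned to higher with library size alone as the scaling. The p53 targets then stood at 12 higher and 5 lower and the clock genes at 13 and 2. Of 385 Zfp zinc finger genes, a family spread over the genome, 85 were higher and 77 lower, or 140 and 44 under that scaling.

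Among the genes picked for naming by size were several outside the lists above. Aqp5, the water channel of sweat glands, stood at 8.64, 8.57 and 8.46 CPM against 1.99, 1.83 and 1.64 CPM, 4.70-fold lower, with an empty-device mean of 11.8 CPM. The peptide genes Nmu and Pyy were 4.58-fold and 4.39-fold lower. Slc12a1, a salt transporter, rose from 6.66, 6.31 and 6.58 CPM to 14.9, 14.6 and 14.5 CPM. Scube3, a secreted signal of the hair follicle's dermal papilla, rose 1.87-fold, and its relative Scube1 was among the higher genes too, at 2.89, 2.95 and 3.31 CPM against 6.283, 6.501 and 5.549 CPM. Of 21 dermal papilla genes 12 were higher and 5 lower, with Corin, a protease that marks these cells, 1.43-fold higher.

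A few single genes had few counts in one group and many in the other. Ptprq was picked by the rule on size, and the others were named after their values were seen. Ptprq, the gene of a receptor-type phosphatase of inner ear hair cells, had 53, 52 and 48 counts in untreated skin against 1244, 1029 and 1043, 20.03-fold higher by the fitted fold change. The empty-device libraries had 44, 65 and 96 counts. It lies on chromosome 10 from 107352910 to 107555912 (mm39). A2ml1, a protease trap gene on chromosome 6 (128516784 to 128558571, mm39), had 7, 10 and 6 counts against 134, 134 and 121. The predicted gene Gm44009, close to A2ml1 on the same strand, had 0 counts in all 3 untreated libraries, which allows up to 3 counts, against 146, 127 and 123.

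The reverse pattern appeared on the X chromosome. Gm4779 and 8030474K03Rik are a predicted gene and a RIKEN cDNA gene that lie head to head between 100833659 and 100842248 (mm39). Gm4779 had 77, 88 and 85 counts in untreated skin against 5, 3 and 1, and 8030474K03Rik had 51, 57 and 47 against 3, 3 and 1. The empty-device libraries had 2, 0 and 2 counts of Gm4779 and 2, 0 and 8 of 8030474K03Rik, all below the untreated libraries. The part of strain or genotype, which the labels leave out, was not tested.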

How the data were processed

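Gene counts were used as deposited: the authors' table holds whole-number read counts for 54456 mouse genes in 9 polyA RNA-seq libraries, of which 6 are compared here. Alignment used HISAT2 and counting featureCounts on mm39, per the submitters' processing notes; the sources used here give no versions, annotation or strand setting. Genes were kept by edgeR's filterByExpr (minimum count 10, minimum total 15), leaving 26081. Counts were scaled by TMM and tested with edgeR 4.0.16 (robust quasi-likelihood, R 4.3.3) in a fit of all 9 libraries, the contrast being loaded minus untreated, with Benjamini-Hochberg adjustment over all tested genes. A call is an adjusted p under 0.05, and the SE comes from the fold change and its F statistic. CPM are TMM-scaled. Alternatives used other scalings and filters, DESeq2 1.42.0, limma-voom 3.58.1, a replicate block and leaving out each library. The procedure was tested on simulated data. Members and lists were chosen with earlier results of these data known, so a list's counts are a description. Named genes are the 15 highest and 15 lowest called genes of at least 1 CPM whose groups do not overlap (predicted genes, RIKEN genes, pseudogenes and V segments left out), up to 5 members of each list with the smallest p, its first 3 members or all of a short list, and its largest exception. Motifs were searched in RefSeq promoters on GRCm38.p6, and their coordinates are not those of mm39.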

Additional observations from a re-analysis of the deposited data

How the results depend on the processing

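With library size alone as the scaling, 8487 genes were higher and 3973 lower, with 151 and 266 of them changed at least 2-fold. Requiring 1 CPM in 3 libraries left 14 genes 2-fold higher and 201 lower, 215 in all. Testing against a 2-fold threshold (edgeR's glmTreat) left 11 higher and 94 lower, 105 in all, and DESeq2's Wald test called 39 genes 2-fold higher. Other scalings and tests kept the counts of calls within 1.5 times. Leaving out single libraries gave 4147 to 5517 genes higher and 5405 to 6154 lower. With library size alone, the balance of higher and lower calls changed for 36 gene lists. That number includes lists that started at a tie, such as connexins (3 and 3), or ended at one, such as the citric acid cycle (9 and 9). Krt5 moved from -0.13 to 0.005, not called, while Krt77, Pecam1 and Saa3 were called higher, at 0.161, 0.149 and 0.356. Flg was called in 8 alternatives, with adjusted p from 2.65e-07 with no filter to 0.036 with DESeq2, and not in the others. Same-numbered libraries of the 2 groups did not deviate together (correlations -0.111, -0.0405 and -0.0752). Deviations from means of 3 libraries cannot exclude a pairing, and the main fit used none. A replicate block gave 4907 genes higher and 6053 lower. Depth limits the genes of few counts: of genes at or under 0.3 CPM 5.18% were called, against 74.3% above 100 CPM.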
